A study of Mus musculus with 27 samples.

Results

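Natural killer (NK) cells of the aorta were chosen by measured transcripts in 4 single-cell libraries. A barcode was kept when it had at least 500 genes, at least 1000 unique molecular identifiers (UMIs, each counting 1 captured RNA molecule) and at most 15% of UMIs from mitochondrial genes. A kept barcode was called NK when at least 3 of 8 NK genes (Ncr1, Klrb1c, Klre1, Gzma, Prf1, Eomes, Klra8, Klra4) and at most 1 of Cd3d, Cd3e and Cd3g were detected. The rule found 197 NK barcodes among 43812 kept barcodes, or 0.45%. Ptprc, which encodes the pan-leukocyte protein CD45, had a UMI in 170 of the 197 barcodes, or 86.3%. It had one in 51 of 56 and 17 of 27 NK barcodes in TKO libraries and in 64 of 68 and 38 of 46 in Cre libraries. Among all kept barcodes it had one in 7027 of 15365 and 3005 of 7425 in TKO and in 6250 of 14489 and 3123 of 6533 in Cre.

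The libraries came from digested non-stripped aorta of mice on a C57BL/6 background, 2 of the genotype labelled TKO and 2 of the genotype labelled Cre, all after 28 days of angiotensin II (Ang II), which constricts vessels and drives hypertension. Bulk RNA libraries of the same series were used for a second look at the NK genes. They comprised non-stripped aorta (3 TKO, 3 Cre), stripped aorta (2 TKO, 4 Cre), isolated aortic fibroblasts (3 TKO, 3 Cre), and non-stripped TKO aorta given an anti-IL-9 antibody (2) or IgG (3), again after 28 days of Ang II. The question of the study is the role of KLF10 and IL-9 in CD4 T cells for scarring around vessels. The labels define neither Cre nor TKO, do not say which cells lack which gene, and do not say whether the 2 libraries of a genotype were separate animals, so p-values measure the spread between these libraries.

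NK cells are innate lymphocytes that kill infected, transformed or stressed cells without a rearranged antigen receptor. Activating receptors and inhibitory receptors, many of them C-type lectins encoded side by side in the NK gene complex, are read together, and killing runs through perforin pores and granzymes. NK cells are also an early source of interferon gamma and of the chemokines CCL3, CCL4, CCL5 and XCL1, and they circulate through blood or settle in tissues as related innate lymphoid cells (ILC1).

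The promoters of the selection genes are shown first because these genes define the cells. All 8 matched a RefSeq promoter of build GRCm38.p6, which runs from 250 bases before to 50 bases after the start. The core letters of the Runx site, TGTGGT on either strand, were searched because Runx3 is a regulator of NK genes. They occurred in 5 of the 8 promoters (Ncr1, Klrb1c, Klre1, Gzma and Prf1) and in 16.8% of all 32851 promoters. The letters GTGTGA of the T-box site, also on either strand, occurred in 2 of the 8 (Ncr1 and Klre1) and in 14.5% of all promoters, and no match of one overlapped a match of the other. Capitals mark the Runx letters in Ncr1 (chr7:4337465-4337764, plus strand), which encodes the activating receptor NKp46, and in Gzma (chr13:113100932-113101231, minus strand), which encodes granzyme A.
Ncr1: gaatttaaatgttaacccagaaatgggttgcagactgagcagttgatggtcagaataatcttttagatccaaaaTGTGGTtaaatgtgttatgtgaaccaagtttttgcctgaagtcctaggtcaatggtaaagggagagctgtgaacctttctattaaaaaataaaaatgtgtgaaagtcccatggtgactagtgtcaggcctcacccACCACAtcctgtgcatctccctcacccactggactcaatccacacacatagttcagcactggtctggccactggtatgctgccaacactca
Gzma: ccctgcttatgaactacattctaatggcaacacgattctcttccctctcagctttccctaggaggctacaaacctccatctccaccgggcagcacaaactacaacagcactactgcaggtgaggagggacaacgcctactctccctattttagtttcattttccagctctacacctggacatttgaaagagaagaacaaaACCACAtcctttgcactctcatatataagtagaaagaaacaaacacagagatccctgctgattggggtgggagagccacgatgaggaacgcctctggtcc
Klra8 and Klra4 encode the activating receptors Ly49H and Ly49D and belong to a family of near-identical genes on chromosome 6, so reads may be shared among its members and each level is uncertain. Their promoters (Klra8, chr6:130129849-130130148, and Klra4, chr6:130067222-130067521, both minus strand) were identical at 259 of 301 aligned positions, or 86.0%. Neither held the Runx or the T-box letters. Capitals mark their longest shared run of 37 bases.
Klra8: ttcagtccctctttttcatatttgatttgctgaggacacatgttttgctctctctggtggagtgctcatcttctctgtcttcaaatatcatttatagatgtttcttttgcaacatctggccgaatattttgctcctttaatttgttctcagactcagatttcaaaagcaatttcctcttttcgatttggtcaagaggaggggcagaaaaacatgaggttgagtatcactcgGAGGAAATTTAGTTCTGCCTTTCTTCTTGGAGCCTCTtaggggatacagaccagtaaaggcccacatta
Klra4: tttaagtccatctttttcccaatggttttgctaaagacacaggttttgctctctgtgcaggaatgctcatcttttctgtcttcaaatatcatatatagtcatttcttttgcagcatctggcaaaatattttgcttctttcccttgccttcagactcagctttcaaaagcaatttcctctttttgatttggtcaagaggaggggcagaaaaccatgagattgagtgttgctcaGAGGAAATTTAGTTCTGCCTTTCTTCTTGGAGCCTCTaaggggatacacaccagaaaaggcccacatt

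The libraries differed before any comparison of genotypes. The 2 TKO libraries had 15365 and 7425 kept barcodes with medians of 1593 and 1409 UMIs, and the 2 Cre libraries had 14489 and 6533 with medians of 2768 and 1683. The median mitochondrial share of kept barcodes was 6.26% and 8.61% in TKO and 7.26% and 10.9% in Cre. The mitochondrial limit alone removed 913 and 1149 barcodes in TKO and 2529 and 7521 in Cre. NK barcodes numbered 56 and 27 in TKO and 68 and 46 in Cre, and their UMIs summed to 112328 and 47104 in TKO and 196816 and 102480 in Cre. Between libraries, 1406 of 113579 distinct barcode sequences were shared, 208 of them among kept barcodes, and 2 of the NK barcodes were also kept in another library.

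Many NK barcodes carried RNA of another cell type. At least 3 markers of fibroblasts, macrophages, B and plasma cells, endothelium, smooth muscle or neutrophils were detected in 82.1% and 66.7% of NK barcodes in TKO and in 29.4% and 63.0% in Cre. Barcodes with at least 2 Cd3 genes, that is T cells, had such markers in 76.7% and 62.2% of barcodes in TKO and in 29.9% and 54.9% in Cre. Fibroblast markers differed most by genotype, with 55.4% and 29.6% of NK barcodes in TKO and 10.3% and 13.0% in Cre. The share with markers of another lineage was 70.8% of the 89 NK barcodes with exactly 3 selection genes, 59.6% of the 52 with 4, 46.7% of the 30 with 5, 22.2% of the 18 with 6, 16.7% of the 6 with 7 and 0 of the 2 with 8. This series pools the libraries. Cre replicate 1, with the lowest share, held 23 of the 89 barcodes with 3 selection genes and 11 of the 18 with 6. The part of the library mix in the series was not tested. Whether barcodes with markers of another lineage are 2 cells in a droplet or hold free RNA was not tested, and no doublet caller was run. Without them, 10 and 9 NK barcodes were left in TKO and 48 and 17 in Cre.

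**Figure D1:**
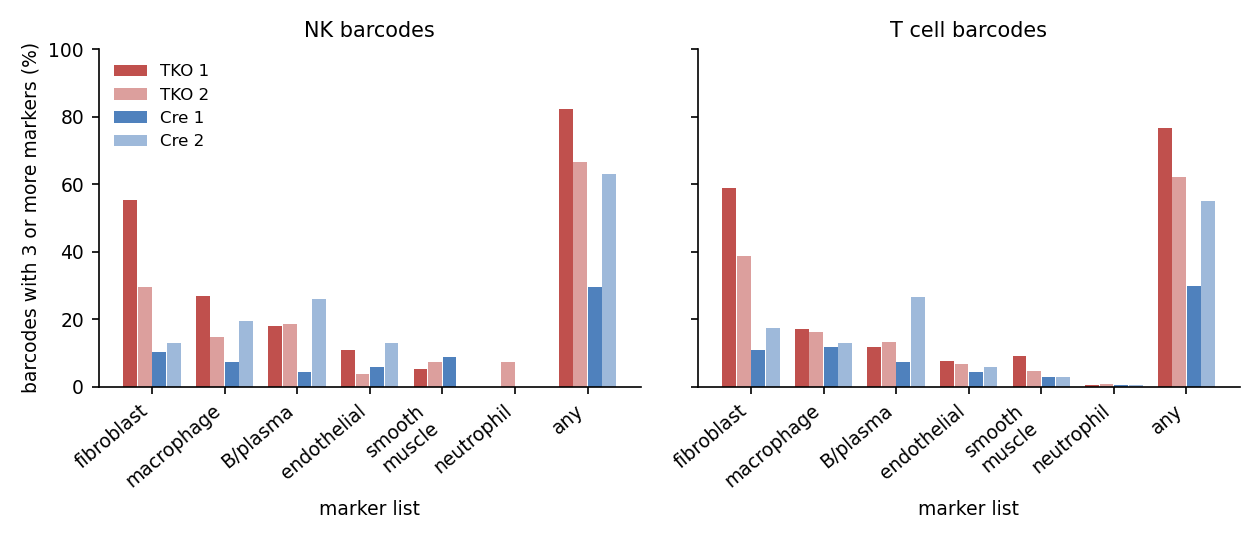
Percentage of barcodes (y axis) with at least 3 markers of each other lineage (x axis), for NK barcodes (left) and T cell barcodes (right), 1 bar per library. Fibroblast markers stood at 55.4% and 29.6% of TKO NK barcodes against 10.3% and 13.0% of Cre NK barcodes, and T cell barcodes had the same order.

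Ncr1, Klrb1c and Klre1 varied little across libraries. Because the rule used them, their levels are a description without a test. Ncr1 had 294 and 255 CPM (UMIs scaled to the same NK total in each library) in TKO and 285 and 244 in Cre, and the 4 values overlapped between genotypes. Klrb1c, which encodes NK1.1, the antigen by which NK cells of this strain are usually stained, had 392 and 382 CPM in TKO and 488 and 400 in Cre. Klre1, a lectin-like receptor that pairs with other family members, had 463 and 531 in TKO and 498 and 429 in Cre.

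The 2 Ly49 receptors were detected in a minority of NK barcodes. Klra8 stood at 418 and 361 CPM in TKO and at 381 and 244 in Cre, and had a UMI in 77 of 197 barcodes. Klra4 stood at 445 and 488 in TKO and at 290 and 293 in Cre, and had a UMI in 74 barcodes. Both TKO values of Klra4 lay above both Cre values, while those of Klra8 overlapped. Both genes were detected in 38 barcodes and neither in 84. Ly49 receptors are known to be switched on in subsets of NK cells, and undetected transcripts at this depth do not show absence.

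The killing genes of the rule varied more. Gzma had 953 and 1444 CPM in TKO and 2190 and 1239 in Cre, and the groups overlapped. Prf1, which encodes perforin, had 196 and 340 in TKO and 518 and 185 in Cre. Eomes, the T-box factor of conventional NK cells, had 205 and 170 in TKO and 295 and 195 in Cre. Replicate 1 of Cre had the highest level of Gzma, Prf1 and Eomes, and it also had the smallest share of barcodes with markers of another lineage. Gzma was detected in 138 NK barcodes and Prf1 in 90, with both in 71.

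**Figure D2:**
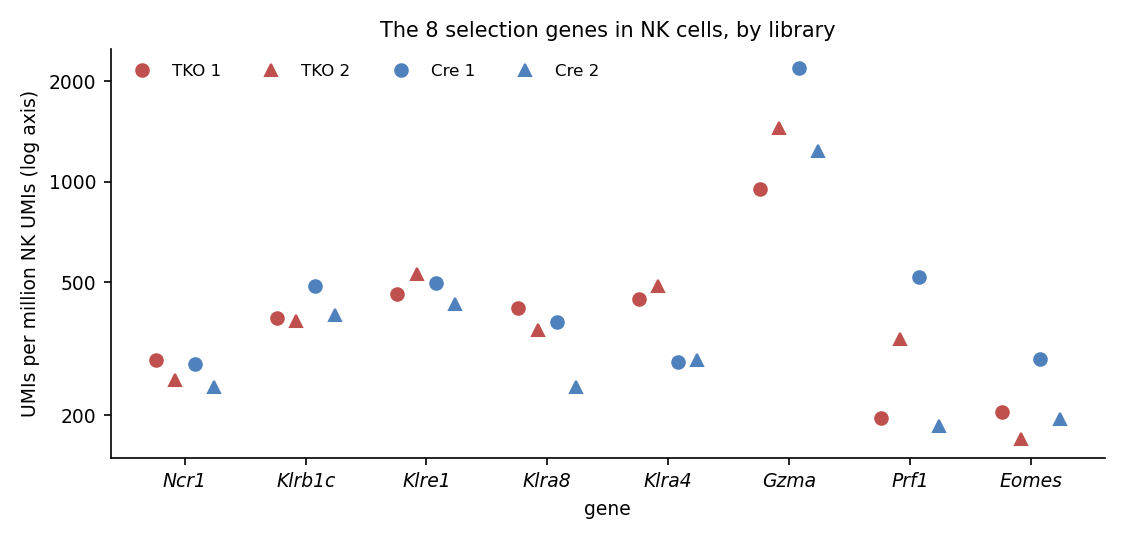
Level of each of the 8 selection genes (x axis) in CPM of NK UMIs (y axis, log scale), 1 point per library. Ncr1 spans 244 to 294 over the 4 libraries and Gzma 953 to 2190.

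The selection genes were less often detected in other classes, which the rule itself sets. A Gzma UMI was found in 70.1% of NK barcodes (median depth 1869 UMIs) and in 0.28% of fibroblast barcodes (median depth 1685), a type that should lack the gene. The corresponding shares were 45.2% and 0.0954% for Ncr1 and 39.1% and 0.0715% for Klra8. Eomes was found in 39.1% of NK and 11.6% of CD8 T barcodes, Prf1 in 45.7% of NK and 7.55% of CD8 T barcodes, and Klre1 in 61.9% of NK and 3.27% of CD8 T barcodes. CD8 T barcodes numbered 490 and CD4 T barcodes 139, each with at least 2 Cd3 genes and its coreceptor. A barcode that also met the NK rule or the marker rule for B, macrophage or fibroblast barcodes was left out. Some RNA of other classes remained, with an Igkc UMI in 41.4% of CD8 T and 43.9% of CD4 T barcodes.

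At the edge of the rule, the 89 barcodes with exactly 3 selection genes were close to the 122 with exactly 2 in Nkg7 (380 and 374 CPM, pooled) and Ccl5 (2026 and 2104) and less close in other genes. Tyrobp stood at 672 inside the rule and 456 outside, Klrd1 at 349 and 197, Cd8a at 25.6 and 51.1, and Trac, the T cell receptor alpha constant gene, at 25.6 and 70.8. The rule also left out 20 barcodes with 3 or more selection genes that had 2 or 3 Cd3 genes, in which Trac stood at 237 CPM. Of the 197 members, 20 had a UMI of 1 Cd3 gene.

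NK-type receptors that the rule did not use were present. Klrk1, the activating receptor NKG2D for stress-induced ligands, averaged 305 ± 114 CPM (SD over the 4 libraries, here and in the next paragraphs), and Klrc2, the activating NKG2C, 230 ± 47. Klrd1, which encodes the CD94 partner of the NKG2 receptors, averaged 383 ± 85.6, and Klri2, a partner of Klre1, 225 ± 32.5. Of the 13 activating receptor genes of the list all had a UMI, and of the 19 inhibitory ones 14 did. Klra6, Klri1, Tigit, Lag3 and Pdcd1 had no UMI among 458728 NK UMIs, which allows up to 6.54 CPM for each. Tyrobp, the DAP12 adaptor through which Ly49H and Ly49D signal, averaged 788 ± 255, and Fcer1g, the gamma chain used by NKp46, 604 ± 147.

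The cytotoxic and secretory programme was also detected. Nkg7, a granule membrane protein, averaged 579 ± 194 CPM, and Srgn, the granule proteoglycan serglycin, 583 ± 75.9. Serpinb9, an inhibitor of granzyme B, averaged 278 ± 157. Gzmb itself had 258 and 127 in TKO and 264 and 146 in Cre, while Gzmc and Gzmk had no UMI. Ccl5 was found in 180 of 197 NK barcodes and averaged 2504 ± 996. Xcl1, a chemokine that attracts cross-presenting dendritic cells, had 312 and 212 in TKO and 874 and 283 in Cre. Ifng, the interferon gamma gene, had 80.1 and 42.5 in TKO and 279 and 48.8 in Cre, so that replicate 1 of Cre stood apart from its partner. Among secreted factors, Csf2, Il13, Il9 and Areg had no UMI.

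Cytokine receptors, homing receptors and transcription factors of lymphocytes were detected, and not only in NK barcodes. The cytokine receptor list summed to a mean of 1747 ± 177 CPM in NK and 1666 ± 298 in CD8 T barcodes. In that order the sums were 3735 ± 355 and 2739 ± 313 for trafficking genes and 3840 ± 454 and 3422 ± 309 for transcription factors. Il2rb, the shared receptor chain for IL-2 and IL-15, had 463 and 361 CPM in TKO and 498 and 283 in Cre, and Ifngr1, the interferon gamma receptor chain, averaged 277 ± 33.7. Ccr2, a chemokine receptor for entry into inflamed tissue, averaged 369 ± 135, and Itga4, an integrin for endothelial VCAM-1, 371 ± 229. Id2, a repressor needed for innate lymphocytes, averaged 494 ± 249, Ets1 461 ± 80.3 and Irf8 400 ± 76.6. Tbx21, which encodes the maturation factor T-bet, was sparse, with 20 UMIs in 17 barcodes. Il22 and Il17a, which ILC3 secrete, had no UMI, nor had Il5 and Il13, which ILC2 secrete. Other members of the ILC lists were detected, with Gata3 in 26 barcodes, Rora in 15, Tmem176a in 18 and Tmem176b in 29. The ILC3 list summed to a mean of 181 ± 38.6 CPM in NK and 91.9 ± 47.3 in CD8 T barcodes. For the ILC2 list the sums were 135 ± 69.5 and 120 ± 42.2 in that order.

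Marks of maturity and residency were detected in few barcodes, too few to read their overlap. Itgam, the CD11b integrin of mature NK cells, had a UMI in 28 barcodes and Cd27, a receptor of less mature cells, in 35, with both in 1. Itga1, the CD49a integrin of resident cells and ILC1, was seen in 23 barcodes and Itga2, the CD49b integrin of conventional NK cells, in 22, with no barcode holding both. Cxcr6, a residency chemokine receptor, was seen in 2 barcodes and S1pr5, which guides exit into blood, in 9.

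Against the other classes, 7 of the 15 genes outside the rule with the highest ratio were NK receptors (Klri2, Klra9, Klra7, Klrb1f, Klrc2, Klrk1 and Klrd1). These are descriptions without a test, since the classes were built from the same barcodes. Klri2 averaged 225 CPM in NK and 0.685 in CD8 T barcodes, with 2.17 in B barcodes as the next highest class, a ratio of 104. Klra9 and Klra7, Ly49 family genes, had ratios of 31.4 and 28.8 to the next highest class, and Klrb1f 27.1. Gzmb reached 10.4, Klrc2 8.65, Klrk1 7.77, Ifng 7.31, Xcl1 5.18, Serpinb9 4.73, Klrd1 4.47, Ccl5 4.35 and Spry2, a feedback inhibitor of growth factor signalling, 4.07. Car2, a carbonic anhydrase, had a ratio of 5.75. S100a9, a neutrophil gene, reached 5.63 because 1 library held it: 108 of its 109 NK UMIs lay in 2 barcodes of TKO replicate 2.

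**Figure D3:**
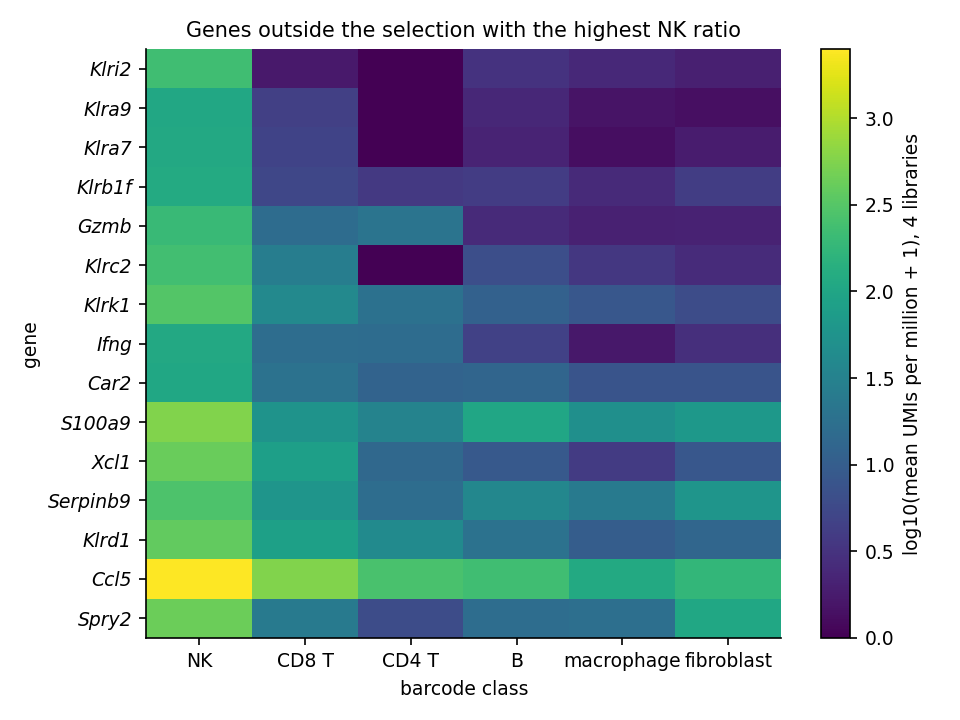
Mean level over 4 libraries, as log10 of CPM plus 1 (colour), of the 15 genes outside the rule with the highest ratio of NK to the next highest class (rows), in 6 barcode classes (columns). Klri2 stands at 225 CPM in NK barcodes and at 0.685 in CD8 T barcodes; S100a9 rests on 2 barcodes of 1 library.

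The genes lowest in NK against CD8 T barcodes were mostly T cell genes. CD8 T barcodes were chosen by Cd8a or Cd8b1 and at least 2 Cd3 genes, so that choice sets the Cd8b1 difference and bears on other T cell genes. The levels are a description without a test. Dapl1, a gene of naive CD8 T cells, had no UMI in NK barcodes and 245 in CD8 T barcodes. Themis, a T cell development gene, had 1 UMI in NK barcodes and averaged 120 CPM in CD8 T barcodes. Cd8b1 averaged 28.7 in NK and 646 in CD8 T, Trac 26.1 and 350.0, Bcl11b 26.9 and 246, Lef1 35.7 and 302, and Icos 18.2 and 116. The immunoglobulin genes, Ighg1 and Igha, completed that list with 3 and 5 NK UMIs. T cell genes were not absent from NK barcodes. Trbc1 had a UMI in 60 of them (30.5%), Trbc2 in 32, Cd28 in 25 and Trdc in 14, while Cd4 and Cd6 had one in 2 each and Cd5 in 1. The alpha-beta T cell list summed to a mean of 422 ± 57.2 CPM in NK and 2578 ± 247 in CD8 T barcodes.

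NK barcodes were a smaller share in TKO than in Cre libraries, by a margin that the exact test on 2 libraries a group cannot call. They made up 0.364% (exact 95% interval 0.275 to 0.473) and 0.364% (0.24 to 0.529) of kept barcodes in TKO, against 0.469% (0.365 to 0.595) and 0.704% (0.516 to 0.938) in Cre. The groups did not overlap, and the mean difference of -0.223 percentage points gave p = 0.333 in a two-sided exact permutation test, the smallest p that 2 against 2 allows. Among barcodes with a Ptprc UMI the shares were 0.726% and 0.566% in TKO and 1.02% and 1.22% in Cre, a difference of -0.475 points, again with exact p = 0.333. Intervals cover counting error only. After thinning every barcode to 1000 UMIs the mean shares of kept barcodes were 0.202% in TKO and 0.353% in Cre. With mitochondrial UMIs limited to 10% they were 0.366% in TKO and 0.427% in Cre, a difference of -0.0615 points, and of barcodes with a Ptprc UMI they were 0.636% in TKO and 0.732% in Cre, a difference of -0.0958 points (exact permutation p = 1). The libraries overlapped in both. At that limit the shares of kept barcodes were 0.311% and 0.421% in TKO and 0.47% and 0.385% in Cre, where replicate 2 had 10 NK barcodes left. With 2 selection genes as the minimum, the means were 0.682% in TKO and 0.876% in Cre and the libraries overlapped. Leaving out replicate 2 of Cre gave a difference of -0.105 points and leaving out replicate 1 of Cre -0.34 points.

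**Figure D4:**
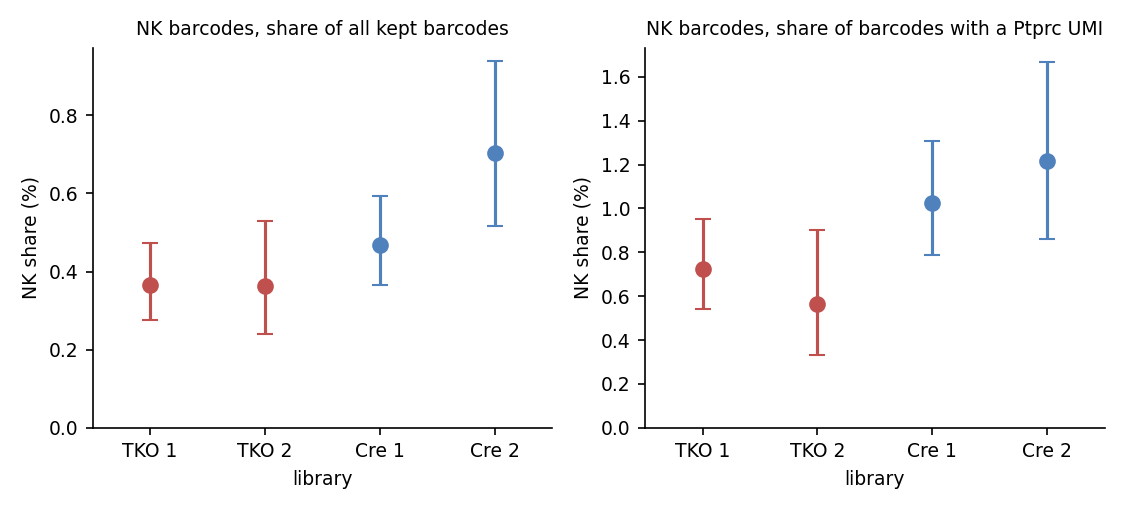
NK barcodes as a percentage (y axis) of all kept barcodes (left) and of barcodes with a Ptprc UMI (right), by library (x axis), with exact 95% binomial intervals as bars. Both TKO points lie below both Cre points: 0.364% and 0.364% against 0.469% and 0.704% on the left.

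When NK UMIs were summed by library and tested across all genes, the genes that differed were those of other cell types. Of 1842 genes tested with edgeR's quasi-likelihood test, 6 passed an adjusted p of 0.05, or 0.326% of those tested, with 3 higher and 3 lower in TKO (0.163% each way), and 84 had an unadjusted p under 0.05. The higher genes were matrix genes of fibroblasts. Lum, a collagen-binding proteoglycan, had 374 and 509 CPM in TKO and 71.1 and 78.1 in Cre, and rose by 2.48 ± 0.39 (log2 fold change ± SE, adjusted p = 0.0387). Aspn, asporin, had 178 and 594 in TKO and 10.2 and 9.76 in Cre (4.93 ± 0.79, adjusted p = 0.0387). Col1a2, a collagen I chain, had 1852 and 3248 in TKO and 478 and 283 in Cre (2.66 ± 0.45, adjusted p = 0.0489). Col3a1 (2.12 ± 0.37, adjusted p = 0.0536) and Col1a1 (3.07 ± 0.55, adjusted p = 0.0583) did not pass. The 7 fibroblast markers, all of them detected, summed to 7629 and 12060 CPM in TKO and 2032 and 1971 in Cre in NK barcodes, and to 13050 and 12480 in TKO and 7562 and 5886 in Cre over all kept barcodes. Their part in the result was not tested. The higher sums rested on few barcodes. In TKO replicate 1 a single barcode held 117 of the 208 Col1a2 UMIs, in TKO replicate 2 all 28 Aspn UMIs lay in 3 barcodes, and the highest 3 barcodes held 71.4% and 87.5% of the Lum UMIs of the 2 TKO libraries. With no Cd3 gene detected in any NK barcode none of the 3 passed (adjusted p = 0.0966 for Lum and Col1a2 and 0.102 for Aspn).

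The lower genes were immunoglobulin genes of B and plasma cells. Igkc, the kappa light chain, had 454 and 807 CPM in TKO and 6915 and 9612 in Cre, and fell by 3.82 ± 0.52 on the log2 scale (adjusted p = 0.0262). Ighm, the mu heavy chain, had 383 and 446 in TKO and 3333 and 5055 in Cre (-3.43 ± 0.46, adjusted p = 0.0262). Jchain, which joins secreted antibody units, had 44.5 and 0 in TKO and 508 and 751 in Cre (-4.39 ± 0.64, adjusted p = 0.0327). These sums also rested on few barcodes. A single barcode held 1026 of the 1361 Igkc UMIs of Cre replicate 1 and a single barcode 882 of the 985 of Cre replicate 2. For Ighm the highest barcode held 63.0% and 93.6% of the UMIs of these libraries, while for Gzma no barcode held more than 19.1% in any library. The 7 B and plasma cell markers, all detected, summed to 846 and 934 CPM in TKO and to 3973 and 6645 in Cre. Over all kept barcodes they summed to 2507 and 2109 in TKO and 3787 and 3477 in Cre, and their part in the result was not tested. Retnla (-1.62 ± 0.39, adjusted p = 0.269) and Iglc2 (-1.69 ± 0.47, adjusted p = 0.437) did not pass.

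Without the barcodes that carried markers of another lineage, none of the 303 genes then tested passed with edgeR, and 6 had an unadjusted p under 0.05. Of the genes called over all NK barcodes, none passed the low-count filter there. The 7 fibroblast markers summed to 1920 and 1262 CPM in TKO (31 and 17 UMIs) and 156 and 491 in Cre (16 and 15 UMIs), still without overlap. Igkc stood at 310 and 223 CPM in TKO and 234 and 883 in Cre, so that the groups overlapped. Over all NK barcodes, DESeq2 called 11 of the 1842 genes, among them the 6 that edgeR called. Leaving out 1 library called 31 genes without TKO replicate 1, 14 without TKO replicate 2, 14 without Cre replicate 1 and 31 without Cre replicate 2, where the lone library of a genotype was assumed to vary like the others.

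**Figure D5:**
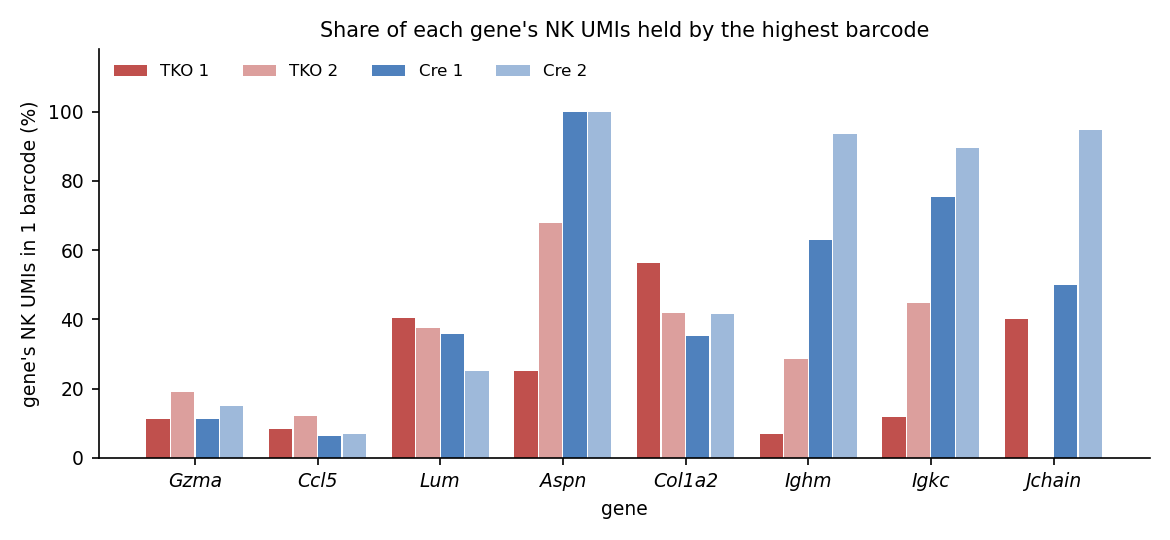
Percentage of a gene's NK UMIs that came from the single highest barcode (y axis), for 2 NK genes and the 6 genes that passed the test (x axis), 1 bar per library; Jchain has no bar in TKO replicate 2, where it had no UMI, and the Cre bars of Aspn rest on 2 and 1 UMIs. Gzma and Ccl5 stay at or under 19.1%, while Igkc reaches 75.4% and 89.5% in the Cre libraries.

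NK function genes gave no call between genotypes. The 8 selection genes are left out here. Of 146 other genes of the 8 NK function lists, 68 were tested and none passed with edgeR or with DESeq2, with 8 at an unadjusted p under 0.05 in edgeR. Their median log2 change was -0.18 (23 positive, 45 negative), beside -0.03 over all genes tested. Klrb1b, an inhibitory receptor of the NKR-P1 family, had the smallest p, with 0 and 2 UMIs in TKO and 28 and 14 in Cre (adjusted p = 0.473). Serpinb6b, a granzyme inhibitor family member, averaged 130 ± 4.31 CPM in TKO and 311 ± 150 in Cre (-1.32 ± 0.43, adjusted p = 0.761). Itga4 averaged 220 ± 41.1 in TKO and 521 ± 254 in Cre (-1.27 ± 0.42, adjusted p = 0.773), and Cd2, an adhesion and costimulatory receptor, had 26.7 and 84.9 in TKO and 158 and 127 in Cre (-1.69 ± 0.60, adjusted p = 0.789). Runx1 had 232 and 191 in TKO and 112 and 48.8 in Cre (1.27 ± 0.45, adjusted p = 0.789).

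By list, the medians leaned lower in TKO for secreted factors (-0.70 over 7 tested genes), activating receptors (-0.38 over 7), cytotoxic granule genes (-0.32 over 8), adaptors (-0.26 over 9), cytokine receptors (-0.23 over 6) and inhibitory receptors (-0.18 over 7), and lay near 0 for trafficking genes (0.04 over 12) and transcription factors (0.08 over 12). No member of these lists passed. Xcl1, with the smallest p among secreted factors, gave -1.16 ± 0.51 (adjusted p = 1). The share of NK barcodes with markers of another lineage was higher in both TKO libraries (82.1% and 66.7%) than in both Cre libraries (29.4% and 63.0%), and its part in these medians was not tested. Genes that dissociation of tissue induces, such as Fos (1442 and 2420 CPM in TKO, 1047 and 1025 in Cre), had a median of 0.24 over 17 tested genes, with none passing.

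Pathway lists gave no call either. All 6 tested genes of the TGF-beta list had a negative log2 change, with a median of -0.30 and none passing. The median over all genes tested was -0.03. The 6 changes ran from -0.002 ± 0.69 (Ski) and -0.04 ± 0.40 (Skil) to -0.57 ± 0.64 (Tgfb1). Smad7, an inhibitor that the pathway induces, had 125 and 170 CPM in TKO and 198 and 176 in Cre (-0.47 ± 0.38, adjusted p = 1). Interferon response genes had a median of -0.07 over 5 tested. Ifi27l2a, an interferon-induced gene, had 276 and 276 in TKO and 239 and 566 in Cre. Proliferation genes had a median of -0.21 over 4 tested.

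The shares of NK barcodes with state markers are given after thinning to 1000 UMIs. With 2 libraries a group the exact permutation test cannot go below p = 0.333, so it can call no difference. Cd27 was found in 5.36% and 11.1% of NK barcodes in TKO and in 11.8% and 13.0% in Cre, a difference of -4.17 points (exact permutation p = 0.333, 11 markers compared). Ifng was found in 7.14% and 3.7% in TKO and in 26.5% and 4.35% in Cre, so that the higher Cre mean came from replicate 1, and leaving it out turned the difference to 1.07 points. Gzmb was found in 16.1% and 18.5% in TKO and in 22.1% and 10.9% in Cre. Itgam was found in 14.3% and 3.7% in TKO and in 7.35% and 6.52% in Cre, and Mki67, a proliferation gene, in 3.57% and 7.41% in TKO and in 1.47% and 10.9% in Cre. Unthinned, the Ifng shares were 14.3% and 7.41% in TKO and 39.7% and 6.52% in Cre.

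At the same 1000 UMIs the marks stood as follows in other classes. Ifng was found in 12.7% of all NK barcodes and 0.143% of fibroblast barcodes, and Gzmb in 17.3% and 0.101%. Klf10 was found in 4.06% of NK, 1.43% of CD8 T and 4.89% of fibroblast barcodes. Cxcr6 was found in 0.508% of NK, 5.92% of CD8 T and 0.703% of fibroblast barcodes, and Itga1 in 5.58% of NK, 3.88% of CD8 T and 10.2% of fibroblast barcodes. Fibroblasts are themselves a source of Klf10 and may be one of Itga1, so RNA from them cannot be told apart from expression in NK cells at these shares. Il7r stood at 7.61% of NK, 37.3% of CD8 T and 5.4% of fibroblast barcodes. Klrg1, a receptor of mature NK cells, had 5 barcodes and S1pr5 4.

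Klf10 itself was sparse in NK cells. It had 3 and 0 UMIs in TKO, of 112328 and 47104, and 12 and 2 in Cre, of 196816 and 102480, so the TKO library at 0 allows up to 3 counts. In CD4 T barcodes, the cells the study's title names, it had 0 and 0 UMIs in TKO, of 31945 and 26208. It had 7 and 2 there in Cre, of 202628 and 95743, so the TKO zeros at lower depth do not show absence. In CD8 T barcodes it had 1 and 2 in TKO, of 192485 and 124293, and 17 and 5 in Cre, of 729741 and 238462. Klf10 did not pass the low-count filter in NK cells and was not tested there. Il9 had no UMI in NK, CD8 T or CD4 T barcodes of any library. Il9r had 1 UMI in NK barcodes, in Cre replicate 2, and Jak1, the kinase bound to that receptor, had 561 and 509 CPM in TKO and 767 and 381 in Cre.

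Whether the genotype difference in NK cells departed from that in T cells was tested as an interaction, with the library as a block. Neither comparison gave a call: 0% of 2917 genes passed for NK minus CD8 T and 0% for NK minus CD4 T in edgeR, with 98 and 154 genes at an unadjusted p under 0.05. No other tool was run on it. The smallest adjusted p against CD8 T belonged to Lyve1, a gene of resident macrophages and lymphatic endothelium (0.0985), with 10 and 3 UMIs in TKO and 23 and 13 in Cre in NK barcodes, and 32 and 11 in TKO and 8 and 5 in Cre in CD8 T barcodes. Retnla, a macrophage gene, followed (adjusted p = 0.175). Against CD4 T the smallest adjusted p was 0.228, shared by S100a6, Apoe, Cd36 and Fabp4 among the genes outside the rule. T cell barcodes that met the marker rule of another class had been left out while NK barcodes that did so had not. When these T cell barcodes were kept, 1 gene was called against CD8 T. Leaving out 1 library gave 3 calls against CD8 T without TKO replicate 1, 6 without TKO replicate 2, 5 without Cre replicate 1 and 15 without Cre replicate 2, and 6, 6, 2 and 18 against CD4 T in that order.

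In whole tissue the selection genes were close to the detection limit. Klf10, the gene of the study, had 822, 696 and 0 counts in non-stripped TKO aorta and 1049, 943 and 1400 in non-stripped Cre aorta (edgeR adjusted p = 0.595), so the library of TKO replicate 3 stood apart from the other libraries labelled TKO. In bulk samples, fewer NK cells, less RNA per NK cell and a change in the RNA of other cells cannot be told apart. The 8 genes summed to 44, 31 and 26 counts in non-stripped TKO aorta and to 23, 35 and 48 in non-stripped Cre aorta, in libraries of 17359198 to 26998674 counts, and the groups overlapped. No selection gene passed the low-count filter there, so none was tested. Of 154 NK genes, 90 were tested and none was called with edgeR, where 0.119% of 15162 genes were called. Of the 90, 10 had an unadjusted edgeR p under 0.05, beside 2714 of all 15162 genes. DESeq2 called 3 lower, and its share over all genes is not given here. The smallest p values were those of Ets1 (48.7 ± 2.33 CPM in TKO and 62.7 ± 0.467 in Cre, SD, n = 3 each, edgeR adjusted p = 0.0828), Cd247, the zeta signalling chain of T and NK cells (1.44 ± 0.555 in TKO and 3.31 ± 0.463 in Cre, edgeR adjusted p = 0.0949), and Srgn (25.1 ± 3.37 in TKO and 34.1 ± 1.39 in Cre, edgeR adjusted p = 0.101). In this set the 8 selection genes summed to 0.891 to 2.25 CPM, far under Ets1 and Srgn. In NK barcodes they summed to a mean of 3877 CPM, above Ets1 (461) and Srgn (583). Which cells gave the bulk counts was not tested. Leaving out TKO replicate 2 gave 3 members called lower, and leaving out TKO replicate 3, the library without Klf10 counts, gave 0. The shares over all genes in these 2 fits are not given here.

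The set called stripped aorta here is so named in its source labels, while its sample titles say non-stripped. There the sums were 27 and 99 counts in TKO and 13, 35, 7 and 74 in Cre, so a TKO library was highest and the groups overlapped. Klra8 had 8 and 18 counts in TKO and 0, 3, 0 and 14 in Cre (1.81 ± 1.16, edgeR adjusted p = 0.532), and Gzma 6 and 52 in TKO and 0, 19, 0 and 14 in Cre (1.94 ± 1.30, edgeR adjusted p = 0.548). Without TKO replicate 2 the Gzma change was -0.19. Of 154 NK genes, 110 were tested and none was called in edgeR, where 0.024% of 16688 genes were called. Of the 110, 22 had an unadjusted edgeR p under 0.05, beside 2295 of all 16688 genes. DESeq2 called 4 higher, and its share over all genes is not given here. Tox, a lymphocyte factor, had the smallest p, with 3.96 ± 0.209 CPM in TKO (n = 2) and 1.13 ± 0.356 in Cre (n = 4, edgeR adjusted p = 0.146). Leaving out TKO replicate 1 gave 2 members called higher.

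Isolated aortic fibroblasts were included as a preparation meant to hold few NK cells. Ptprc averaged 13.7 ± 2.73 CPM in TKO and 21.4 ± 7.19 in Cre (SD, n = 3 each), so they were not free of leukocyte RNA. Non-stripped aorta had 11.2 ± 1.69 in TKO and 9.97 ± 3.69 in Cre. The 8 genes summed to 29, 29 and 27 counts in TKO and 19, 19 and 35 in Cre, of 28174755 to 38633457, and Klra8 had no count in any of the 6 libraries. None of the 8 was tested. Of 154 NK genes, 100 were tested and none was called in edgeR, where 0.0638% of 15673 genes were called. Of the 100, 27 had an unadjusted edgeR p under 0.05, beside 1898 of all 15673 genes. The calls of DESeq2 were 2 higher and 11 lower, and its share over all genes is not given here. Serpinb6b had the smallest p (41.8 ± 7.03 CPM in TKO and 19.3 ± 3.83 in Cre, SD, n = 3 each, edgeR adjusted p = 0.104).

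After anti-IL-9 the counts of the selection genes were again few. They summed to 81 and 13 counts in aorta given anti-IL-9 and to 77, 45 and 29 in aorta given IgG, with overlapping groups and the 2 anti-IL-9 libraries at both ends. Gzma had 20 and 2 counts after anti-IL-9 and 12, 18 and 4 after IgG (-0.29 ± 0.78, edgeR adjusted p = 0.803), and Eomes averaged 0.436 ± 0.231 CPM after anti-IL-9 (n = 2) and 0.474 ± 0.23 after IgG (n = 3, -0.06 ± 0.61, edgeR adjusted p = 0.951). Without anti-IL-9 replicate 2 the Gzma change was 0.44 and that of Eomes 0.34, and without IgG replicate 2 the Gzma change was 0.06. Of 154 NK genes, 106 were tested and 28 called, 11 higher and 17 lower. That is 26.4% of those tested, while 32.1% of all 16463 genes were called, 21% higher and 11% lower. The called members with the smallest p were Gata3 (30.4 ± 5.85 CPM after anti-IL-9 and 2.14 ± 0.78 after IgG, 3.82 ± 0.28, edgeR adjusted p = 0.000181), a factor that other lymphocytes and sympathetic neurons also use, Cxcr4 (65.1 ± 9.91 after anti-IL-9 and 9.25 ± 3.4 after IgG, edgeR adjusted p = 0.000555) and Tox (11.1 ± 2.35 after anti-IL-9 and 1.70 ± 0.566 after IgG, edgeR adjusted p = 0.000804). Which cells gave these counts was not tested. Leaving out anti-IL-9 replicate 1 left 3 members called higher, leaving out anti-IL-9 replicate 2 gave 26, and leaving out IgG replicate 3 left 5 (IgG replicate 2, 7). Klf10 fell to 22.1 ± 1.81 CPM after anti-IL-9, against 38.5 ± 9.51 after IgG (-0.80 ± 0.22, edgeR adjusted p = 0.0296), and Ptprc averaged 20.4 ± 19.9 after anti-IL-9 and 17.9 ± 5.48 after IgG (edgeR adjusted p = 0.826).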

How the data were processed

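Each single-cell matrix gives deposited UMI counts for genes by barcodes, which the authors made with Cell Ranger 6.0.0, per the file headers. For bulk samples the authors deposited unnormalized counts under gene symbols. The submitters' processing notes name GRCm38, Trimmomatic 0.36, STAR 2.5.2b, Subread 1.5.2 and featureCounts, and give no strand setting. The genome build of the single-cell counts, and whether barcodes were filtered before deposit, are not given in the sources used here. Blank gene names took 0.0025% or less of each bulk library and were dropped. A table had 1 further column of values that matches no label, and it was not used. The tables of sample annotation were not used.

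UMIs of NK barcodes were summed per library and tested as 4 samples. After filterByExpr (minimum count 10) and TMM scaling, edgeR 4.0.16 in R 4.3.3 gave the tests (quasi-likelihood, Benjamini-Hochberg adjustment over all genes tested, threshold 0.05). Fold changes use these factors, and levels of NK cells are CPM without them. The interactions used barcode class by genotype with the library as a block. DESeq2 1.42.0 was an alternative, and the fits were tested on simulated data. Shares were compared with exact permutation tests over libraries. Thinning drew 1000 UMIs per barcode without replacement. For a gene at 0 the upper limit is 3 counts, and intervals are exact (Clopper-Pearson) at 95%. T cells are barcodes with at least 2 Cd3 genes. No paired fit was the main one. The members, the gene lists and the tests were chosen with earlier results of these data known. Named genes are the selection genes, Klf10, Il9, Il9r and Ptprc, up to 4 members per list by level and 3 by p, up to 10 genes per direction for TKO against Cre and 5 per direction for each interaction by p (where fewer than 5 passed, the 5 smallest p), up to 3 NK genes per bulk table, the 15 genes with the highest ratio of NK to every other class at 100 CPM or more, and the 10 lowest against CD8 T.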

Additional observations from a re-analysis of the deposited data

Results flagged for a closer look

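Klra4 in stripped aorta was flagged because 1 library stood far from the others of its group. It had 0.189 CPM in Cre replicate 4, where the selection gene had 7 counts, and no count in the other 3 Cre libraries. Chance flags about 1 in 20 groups, and 8 groups were examined. That rate need not hold here, since beside libraries at 0 any count stands far from the rest.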

How the results depend on the processing

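The difference in NK share stayed negative under every alternative run: -0.34 to -0.105 points of kept barcodes and -0.571 to -0.378 points of barcodes with Ptprc when 1 library was left out. With at most 10% mitochondrial UMIs they were smaller, -0.0615 and -0.0958 points, and the libraries overlapped. For marker shares, the TKO minus Cre difference reversed without thinning for Itgam (-1.85), Gzmb (-8.61) and Mki67 (2.22), after thinning to 1500 UMIs for Itgam (-1.37), Gzmb (-3.75) and Mki67 (7.39), and with at least 4 selection genes for Itgam (-2.24), S1pr5 (0.238) and Il7r (1.43). Leaving out 1 library gave ranges of -3.23 to 7.35 for Itgam, -2.56 to 1.85 for S1pr5, -4.99 to 0.893 for Klrg1, -3.21 to 1.08 for Itga1, -2.17 to 0 for Cxcr6, -5.77 to 2.86 for Il7r, -21.1 to 1.07 for Ifng, -4.76 to 6.42 for Gzmb, -4.03 to 1.33 for Klf10 and -5.38 to 4.02 for Mki67.

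In NK cells, 3 genes were called higher and 3 lower in TKO. The genes called higher numbered 5 with DESeq2 size factors in edgeR, 8 with DESeq2, 16 with no filter on low counts (19 lower), 1 with at least 4 selection genes, 0 with no Cd3 gene detected, 1 without barcodes shared between libraries, 5 after thinning and 0 (0 lower) without barcodes with markers of another lineage, where 303 genes were tested. With the replicate number as a block, 0 were called higher and 1 lower. The labels do not say that numbers pair the libraries, and the correlation of same-numbered deviations was 0.0989. Leaving out 1 library gave 4 to 19 higher and 5 to 13 lower. Of the alternatives in which the gene could be tested, Igkc stayed called in 12 of 12, Ighm in 11 of 12, Jchain in 10 of 11, Lum in 8 of 11, Col1a2 in 8 of 12 and Aspn in 6 of 10. None of the 6 could be tested without barcodes with markers of another lineage. Retnla reversed to 1.31 with at least 4 selection genes and to 1.43 with no Cd3 gene.

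For NK minus CD8 T, no filter gave 3 higher and 7 lower, keeping T cell barcodes with other markers (chosen after seeing the data) gave 1 higher and turned Cxcl2 to 0.514, and leaving out 1 library gave 1 to 2 higher and 2 to 13 lower. For NK minus CD4 T, no filter gave 4 higher and 6 lower, and leaving out 1 library 0 to 8 higher and 2 to 10 lower. The replicate block gave 0 calls in both.

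Of NK genes in bulk, DESeq2 called 3 lower and no filter 1 lower in non-stripped aorta, with 0 to 3 lower when 1 library was left out. In stripped aorta DESeq2 called 4 higher, leaving out 1 library 0 to 2 higher, and Gzma ranged over -0.186 (without TKO replicate 2) to 2.83. In fibroblasts DESeq2 called 2 higher and 11 lower, and no filter 2 higher and 19 lower. After anti-IL-9, no filter gave 26 higher and 28 lower, and leaving out 1 library 3 to 26 higher and 11 to 15 lower. Gzma ranged over -2.37 to 0.437, turning positive without anti-IL-9 replicate 2 and without IgG replicate 2 (0.063), and Eomes over -0.781 to 0.345. The cause of these changes was not tested, and the shares over all genes under these alternatives are not given here. Depth limits the NK sums: 27 to 68 barcodes per library left 1842 genes to test.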
